A study of Mus musculus with 10 samples.

Results

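The 10 genes described here mark or control the hepatocytes around the central vein of the mouse liver lobule. They were taken by name, by a rule that uses no measured value but with earlier results of these data known, from the 55401 genes of the count tables: Axin2, Rnf43, Znrf3, Lgr4, Lgr5, Tbx3, Glul, Oat, Slc1a2 and Rhbg. In the liver, endothelial cells of the central vein release Wnt ligands and the Wnt amplifier R-spondin 3, so that β-catenin and its TCF/LEF partners are most active in the nearest hepatocytes. Those hepatocytes express Axin2, Rnf43 and Znrf3, which feed back on the pathway, and the glutamine synthetase gene Glul, whose product captures the ammonia that upstream hepatocytes have not turned into urea. Urea synthesis itself takes place mostly near the portal vein, a division of labour known as metabolic zonation.

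The RNA-seq data cover whole livers of 5 wild-type (WT) and 5 Thrb hep-/- animals, with 1 library per mouse and between 26477195 and 28590704 counted reads per library, so that 3 counts correspond to between 0.105 and 0.113 CPM (counts scaled to a common library size). Thrb encodes thyroid hormone receptor β, a nuclear receptor that activates or represses genes according to its ligand T3. The Thrb hep-/- mice came from a cross of Thrb-loxP/loxP mice with Afp-Cre mice, in which the promoter of the alpha-fetoprotein gene drives the recombinase, and all mice were labelled C57Bl6/J, received standard chow and no treatment. The study's methods give the age and sex of purchased WT mice in an injection experiment and do not tie them to these livers. For the 10 livers, age, sex, collection time and whether the WT mice carried loxP alleles are not stated in the sources used here.

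Thrb itself had 33.3 ± 0.64 normalized CPM in WT livers and 26.7 ± 1.9 in Thrb hep-/- livers (mean ± SD, n = 5 each), a log2 fold change of −0.32 ± 0.067 (SE, adjusted p = 0.036 by edgeR's quasi-likelihood test), and the genotypes did not overlap. Its messenger RNA thus remained at 80.1% of the WT level when all exons and all liver cells were counted together. The livers also differed in genes outside the pericentral set. Of 24 tested acute-phase genes, which hepatocytes express under inflammatory cytokines, 15 fell and none rose. The share called at an adjusted p below 0.15 was thus 62.5%, beside 4.08% of all tested genes. The sums over all 25 listed acute-phase genes were 39125 to 89557 CPM in WT and 26273 to 43406 CPM in Thrb hep-/- livers. Leaving out 1 mouse gave between 8 called acute-phase genes, without Thrb hep-/- replicate 3, and 17. Hepatocyte markers had no called gene among 9 tested, and their sums lay between 108771 and 155136 CPM in WT and between 120021 and 132075 CPM in Thrb hep-/- livers. The 10 tested Kupffer cell and leukocyte markers all had fold changes below 0. Among them 1 was called, the neutrophil gene S100a8, a share of 10% beside 4.08% of all tested genes. The sums over all 12 listed markers of these cells were 113 to 416 CPM in WT and 125 to 252 CPM in Thrb hep-/- livers. To be tested, a gene needed 1 CPM or more in 5 or more libraries. S100a8 reached that level only in WT replicates 1, 2, 3 and 5 and Thrb hep-/- replicate 1, and was not tested without any of these mice. The call of S100a8 was lost without Thrb hep-/- replicate 2, 3, 4 or 5 (log2 fold changes from −2.75 to −2.41). It held only without WT replicate 4 (−2.92). S100a8 entered the test mainly through the WT livers, where it was high, so its call is given as a description only. In bulk tissue, fewer cells of a type and less RNA per cell cannot be told apart.

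To ask whether the deletion changed the pericentral Wnt program, the members were read from a comparison across all genes. Of the 10 members, 9 passed the filter on low counts and 1 of these was called at an adjusted p below 0.15, namely Lgr4, which fell. Over all 12234 tested genes the share called was 4.08%, with 2.57% lower and 1.51% higher. No member passed an adjusted p of 0.05. At an unadjusted p below 0.05 there were 2 members, Lgr4 and Znrf3, where 13.6% of all tested genes stood below that value. In no member did the genotypes separate, against 3.64% of all tested genes in which they did. The fold changes of the 9 tested members had 5 values above 0 and 4 below, with a median of 0.012 on the log2 scale, beside a median of 0.00054 over all tested genes.

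**Figure D1:**
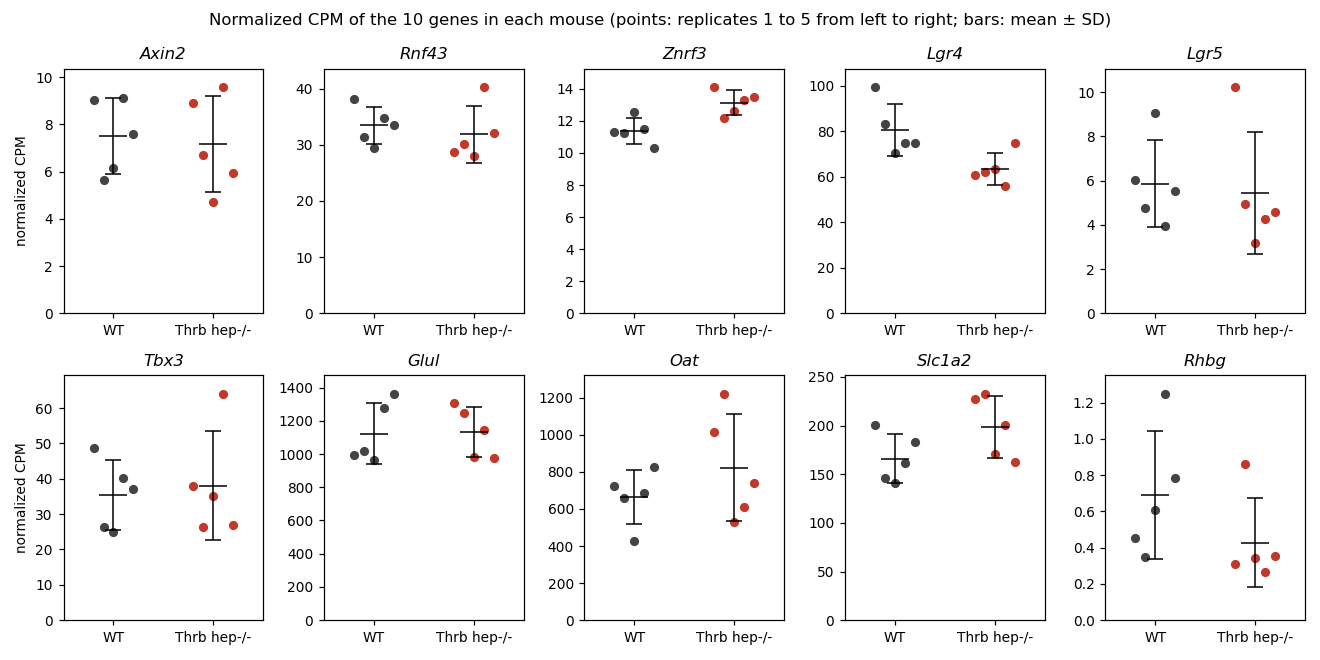
Normalized CPM (vertical axes, each from 0) of the 10 genes in the 5 WT (dark) and 5 Thrb hep-/- (red) livers, with replicates 1 to 5 from left to right and bars for the mean ± SD. The genotypes overlap in every panel, Lgr4 sits lower in 4 of the 5 Thrb hep-/- livers than in any WT liver, and Rhbg stays near or below 1 CPM.

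The receptors come first in the pathway. Lgr4 and Lgr5 encode the related membrane receptors that bind R-spondins and thereby protect the Wnt receptors from removal. Lgr4 (ENSMUSG00000050199) lies on the plus strand of chromosome 2 from 109917647 to 110014257 in the mm10 (GRCm38) assembly, with exons that no other gene shares. Its level was 99.5, 83.0, 70.3, 74.8 and 75.0 normalized CPM in WT replicates 1 to 5. In Thrb hep-/- replicates 1 to 5 it was 60.5, 62.0, 63.4, 56.0 and 74.5. Only Thrb hep-/- replicate 5 reached the WT range, where it stood above WT replicate 3, and the highest value of all came from WT replicate 1. The means were 80.5 ± 11.6 and 63.3 ± 6.9 CPM (SD, n = 5 each), and the fitted level in Thrb hep-/- livers was 78.6% of that in WT livers. The log2 fold change was −0.35 ± 0.10 (SE) with a 95% interval from −0.57 to −0.12, and the adjusted p of edgeR's test was 0.146, close to the threshold.

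Close to the threshold, that call was lost in most fits that left out 1 mouse. Without Thrb hep-/- replicate 3 it was lost at an unchanged log2 fold change of −0.35 (edgeR adjusted p = 0.278). Leaving out WT replicate 1 moved the log2 fold change of Lgr4 to −0.26 (edgeR adjusted p = 0.23). The call was also lost without WT replicate 2, 4 or 5 or without Thrb hep-/- replicate 1, 2 or 4, with edgeR adjusted p-values from 0.156 to 0.292. It held without WT replicate 3 and without Thrb hep-/- replicate 5. The direction was the same in all 10 of these fits, with values from −0.41 to −0.26. DESeq2 gave an adjusted p of 0.071 for Lgr4 where it called 7.23% of all tested genes, and limma-voom gave 0.121 where it called 6.94%. With RLE scaling the call was lost at an edgeR adjusted p of 0.153, and with a block for the replicate number it was lost at 0.246. The acute-phase and leukocyte marker values given above moved with the same genotypes, and their part in the Lgr4 difference was not tested.

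Lgr5, on the minus strand of chromosome 10 from 115450311 to 115587780, is the receptor that marks pericentral hepatocytes and stem cells of several other organs. Its levels in WT replicates 1 to 5 were 6.02, 4.76, 9.08, 3.95 and 5.54 normalized CPM, and those in Thrb hep-/- replicates 1 to 5 were 10.2, 4.95, 3.19, 4.27 and 4.56. The ranges overlapped almost entirely, and the highest liver of each genotype lay well above the other 4. The coefficient of variation was 33.4% in WT and 50.8% in Thrb hep-/- livers, the largest of the tested members in each genotype and above the medians of 11.8% and 13.7% over all tested genes. The log2 fold change was −0.11 ± 0.31 (SE, edgeR adjusted p = 0.93), and its 95% interval from −0.79 to 0.57 covers fold changes between 0.577 and 1.49.

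Rnf43 and Znrf3 encode the membrane ubiquitin ligases that remove Wnt receptors from the cell surface, and R-spondins act by holding them back. Znrf3, on the minus strand of chromosome 11 from 5276324 to 5444847, had 11.3, 11.3, 12.5, 11.5 and 10.3 normalized CPM in WT replicates 1 to 5 and 14.1, 12.2, 12.6, 13.3 and 13.5 in Thrb hep-/- replicates 1 to 5. The genotypes overlapped through 1 pair of livers, Thrb hep-/- replicate 2 below WT replicate 3. The difference was small and its spread narrow, with means of 11.4 ± 0.80 and 13.1 ± 0.77 CPM. Fitted on the log2 scale, the difference was 0.21 ± 0.080 (SE) with a 95% interval from 0.035 to 0.38. The edgeR test gave an adjusted p of 0.27, so Znrf3 was not called.

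Rnf43 lies on the plus strand of the same chromosome from 87662722 to 87735539. Its levels in WT replicates 1 to 5 were 38.1, 31.4, 29.4, 34.9 and 33.5 normalized CPM, and in Thrb hep-/- replicates 1 to 5 they were 28.7, 30.1, 28.0, 40.4 and 32.1. The highest and the lowest value both came from Thrb hep-/- livers. Its log2 fold change was −0.071 ± 0.11 (SE, edgeR adjusted p = 0.84) with a 95% interval from −0.30 to 0.16, so the fold changes of the 2 ligase genes had opposite signs and only that of Znrf3 had an interval away from 0.

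Axin2 encodes a scaffold of the complex that destroys β-catenin and is widely read as a measure of Wnt activity, because β-catenin itself induces it. The gene lies on the plus strand of chromosome 11 from 108920349 to 108950783. Its levels in WT replicates 1 to 5 were 9.04, 5.63, 6.15, 9.10 and 7.60 normalized CPM, and in Thrb hep-/- replicates 1 to 5 they were 8.93, 6.71, 4.70, 9.60 and 5.94. Both genotypes held livers near 9 and livers near or below 6 CPM. The means were 7.50 ± 1.6 and 7.18 ± 2.1 CPM, and the log2 fold change was −0.062 ± 0.20 (SE, edgeR adjusted p = 0.94). The coefficient of variation was 21.4% in WT and 28.6% in Thrb hep-/- livers, at 137 to 290 counts per library. The 95% interval ran from −0.50 to 0.38, which corresponds to fold changes between 0.705 and 1.30.

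Tbx3 encodes a T-box repressor that β-catenin induces in liver, and it is also among the transcription factors whose connection to hepatocyte identity the study examined. On the plus strand of chromosome 5 from 119670669 to 119684724, it had 48.6, 26.3, 24.8, 40.2 and 37.2 normalized CPM in WT replicates 1 to 5 and 37.8, 26.4, 35.1, 64.1 and 26.8 in Thrb hep-/- replicates 1 to 5. Thrb hep-/- replicate 4 had the highest level, the other 4 Thrb hep-/- livers lay inside the WT range, and 2 WT livers stood above those 4. Tbx3 had a log2 fold change of 0.10 ± 0.27 (SE, edgeR adjusted p = 0.92), with a 95% interval from −0.50 to 0.71. Without Thrb hep-/- replicate 4 it was −0.17, and without WT replicate 3 it was −0.0016. Its exons share 115 bases with the antisense gene Tbx3os1, which had 4.37 to 24.3 CPM, and reads were counted without strand, so reads over those bases could not be assigned to either gene.

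**Figure D2:**
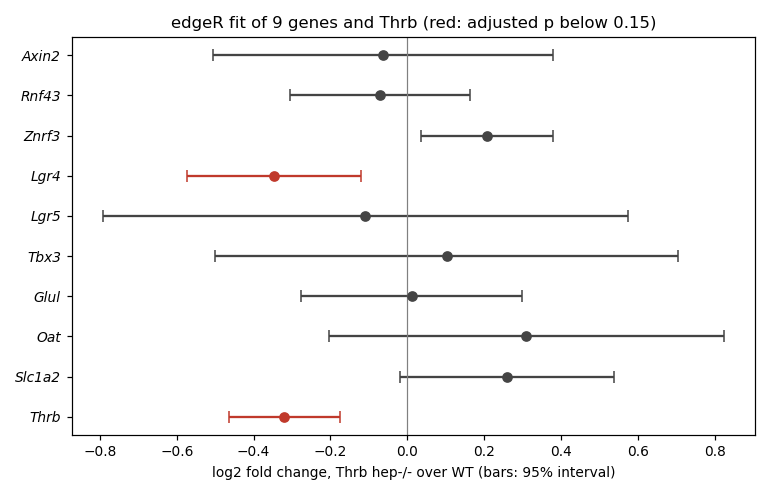
Log2 fold change of Thrb hep-/- over WT (horizontal axis) for the 9 tested members and Thrb, with bars for the 95% interval of the edgeR fit and red for an adjusted p below 0.15. Lgr4 and Thrb lie below 0, the interval of Znrf3 lies just above it at 0.035 to 0.38, and the intervals of the other 7 members contain 0.

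The remaining members act in ammonia and glutamate metabolism. Glul encodes glutamine synthetase, which joins ammonia to glutamate and marks the innermost ring of hepatocytes. It lies on the plus strand of chromosome 1 from 153899944 to 153909723. WT replicates 1 to 5 had 993, 1020, 964, 1276 and 1364 normalized CPM of Glul, and Thrb hep-/- replicates 1 to 5 had 1308, 1249, 981, 1147 and 978. The 2 highest WT livers and the 2 highest Thrb hep-/- livers stood at similar levels. The means were 1123 ± 183 and 1133 ± 151 CPM, and the log2 fold change was 0.012 ± 0.13 (SE, edgeR adjusted p = 0.98). Its 95% interval corresponds to fold changes between 0.826 and 1.23, at 26246 to 37656 counts per library. A larger change of the whole-liver Glul level lay outside this interval, which does not exclude it.

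Oat encodes ornithine aminotransferase, which turns ornithine into a precursor of glutamate in the same hepatocytes. On the minus strand of chromosome 7 from 132557478 to 132576398, it had 726, 658, 429, 685 and 824 normalized CPM in WT replicates 1 to 5 and 1015, 1223, 532, 608 and 740 in Thrb hep-/- replicates 1 to 5. The 2 highest livers were Thrb hep-/- replicates 1 and 2, and the other 3 Thrb hep-/- livers fell inside the WT range. Oat had a log2 fold change of 0.31 ± 0.24 (SE, edgeR adjusted p = 0.62), with a 95% interval from −0.20 to 0.82. Without Thrb hep-/- replicate 2 it was 0.13.

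Slc1a2 encodes the glutamate transporter GLT-1, known from astrocytes and present on pericentral hepatocytes, where it supplies glutamine synthetase with glutamate. The gene lies on the plus strand of chromosome 2 from 102658659 to 102790784. Its levels were 200, 146, 141, 161 and 183 normalized CPM in WT replicates 1 to 5 and 227, 233, 171, 201 and 163 in Thrb hep-/- replicates 1 to 5. The Thrb hep-/- livers included the 3 highest values, and their lowest stood above 3 of the 5 WT livers. Between genotypes the log2 fold change of Slc1a2 was 0.26 ± 0.13 (SE) with a 95% interval from −0.020 to 0.54, and the edgeR adjusted p was 0.41.

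Rhbg encodes an ammonia channel of the Rhesus family. On the minus strand of chromosome 3 from 88242874 to 88254709, it had 12, 10, 17, 32 and 21 counts in WT replicates 1 to 5 and 9, 23, 10, 8 and 10 in Thrb hep-/- replicates 1 to 5. Only WT replicate 4, at 1.25 CPM, passed 1 CPM, so Rhbg did not enter the test. Counts summed to 92 in WT and 60 in Thrb hep-/- livers, and in a fit with no filter, over 27817 genes, the log2 fold change was −0.70 ± 0.37 (SE, edgeR adjusted p = 0.56) with a 95% interval from −1.45 to 0.059. Of its 1937 exon bases, 61.4% are shared with the gene model Gm38392 on the same strand. Reads that matched both were not counted, so the level of Rhbg is uncertain.

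Per kilobase of exon, the 10 members spanned 3 tiers of level. Glul averaged 339 ± 48 and Oat 315 ± 98 normalized CPM per kb over the 10 livers (SD), and neither stood above the other beyond their spread, with Glul higher in 6 of 10 livers. Then came Slc1a2 at 13.9 ± 2.4 and Lgr4 at 12.2 ± 2.2 CPM per kb, whose ranges overlapped with Slc1a2 higher in 5 of 10 livers. Tbx3 followed at 5.55 ± 1.9 and Rnf43 at 4.98 ± 0.63 CPM per kb, again with overlapping ranges. The lowest levels per kb were those of Znrf3 at 1.55 ± 0.15, Axin2 at 1.33 ± 0.32, Lgr5 at 0.551 ± 0.22 and Rhbg at 0.288 ± 0.16 CPM. The Rhbg value is too low, since it divides by all exon bases and reads over the 61.4% shared with Gm38392 were not counted. The order of Rhbg and Lgr5 is therefore uncertain. Between neighbours in this order, the ranges were apart only from Oat to Slc1a2, a 22.7-fold step, and from Rnf43 to Znrf3, a 3.21-fold step, so Glul and Oat exceeded each Wnt feedback gene in all 10 livers.

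**Figure D3:**
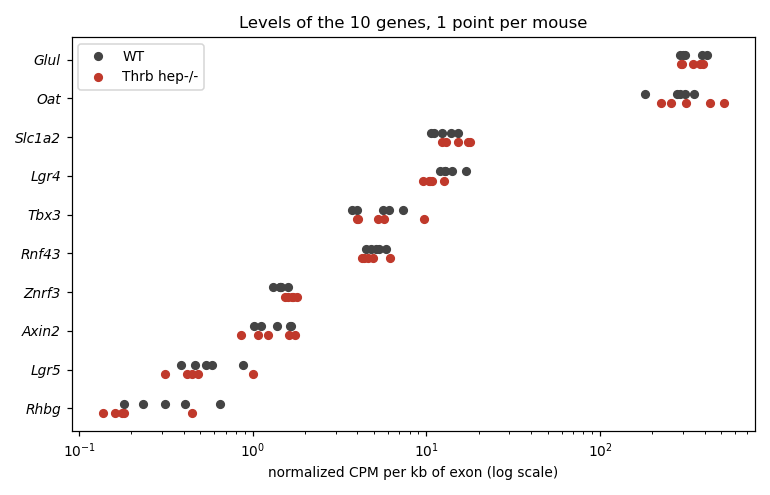
Normalized CPM per kb of exon (horizontal log axis) for the 10 members in order of their mean, with 1 point per liver, dark for WT and red for Thrb hep-/-. Glul and Oat form a group of their own above the rest, the gap from Rnf43 to Znrf3 is the only other one, and the genotypes lie over each other in each row. The place of Rhbg is uncertain because most of its exon bases are shared with another gene.

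How the members varied from liver to liver within a genotype was examined by subtracting the genotype mean from log2 CPM (prior count of 2), which leaves the genotype out. Over 36 pairs of the 9 tested members and 10 livers, Pearson's r ran from −0.46 to 0.80 with a median of 0.15. No pair passed after Benjamini-Hochberg adjustment over the 36 pairs, where the lowest adjusted p was 0.31, and 5 pairs had an unadjusted p below 0.05 by the exact permutation test within genotypes. Axin2 and Tbx3 had r = 0.75 (exact permutation p = 0.025) and Spearman's rho = 0.71 (p = 0.032), and r was 0.85 without the 2 livers farthest from the median of Axin2. Slc1a2 and Oat had r = 0.75 (exact permutation p = 0.029) and rho = 0.79 (p = 0.020), with r = 0.85 without the 2 farthest livers. Glul and Oat, both of the high tier, had r = 0.68 (exact permutation p = 0.043) and rho = 0.76 (p = 0.022), with r = 0.58 without the 2 farthest livers. Tbx3 and Rnf43 had r = 0.80 (exact permutation p = 0.018) and rho = 0.73 (p = 0.029), but r was 0.31 without Thrb hep-/- replicate 4 and WT replicate 1, so the size of r depends on those 2 livers. With them included, r was 0.98 within the WT and 0.71 within the Thrb hep-/- livers. Axin2 and Rnf43 had r = 0.68 (exact permutation p = 0.050) and rho = 0.65 (p = 0.064), with r = 0.44 without the 2 farthest livers. Lgr4, the called member, had no such pair, and its r with the other members ran from −0.46 with Glul to 0.20 with Oat. These livers share library preparation and tissue, and collection time was not known.

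**Figure D4:**
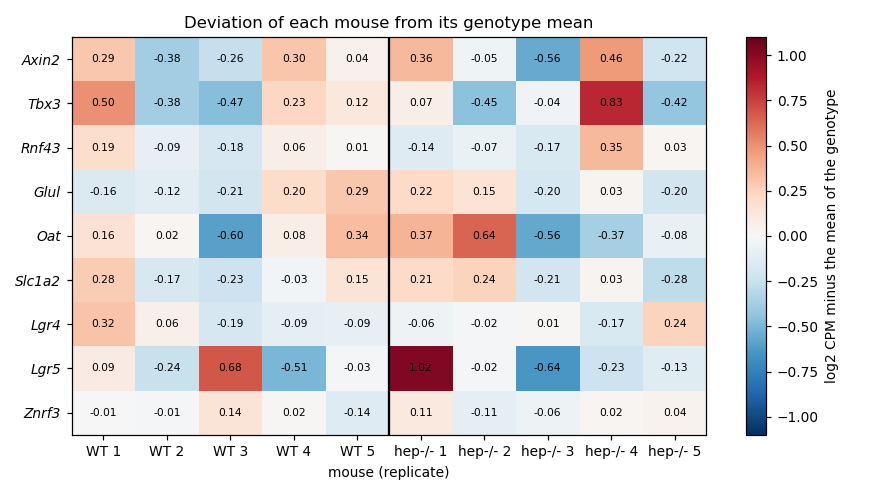
Deviation of each liver (columns, replicates 1 to 5 of WT and of Thrb hep-/-) from its genotype mean, in log2 CPM, for the 9 tested members (rows), red for above and blue for below, with the value printed in each cell. Axin2 and Tbx3 deviate in the same direction in all 10 livers, and the largest deviation is that of Lgr5 in Thrb hep-/- replicate 1.

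Among all 12233 other tested genes, those most like Glul in this measure were Anapc5 (r = 0.95), 3110056K07Rik (r = 0.95), Ssb (r = 0.93), Egfl7 (r = 0.93) and Gle1 (r = 0.93), over 10 livers. The member nearest to Glul was Oat, at rank 173. Those most like Axin2 were Kctd6 (r = 0.89), Denr (r = 0.88), Rps10 (r = 0.87), Mat2a (r = 0.87) and Alad (r = 0.86), and Tbx3 stood at rank 48. These values are the highest of many and are given as a description.

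The wider pathway was described from lists of its known genes. Of 91 Wnt pathway genes besides the members, 55 were tested, 1 rose and none fell, with a median log2 fold change of 0.012, and the called share of 1.82% stood below that of all tested genes. The gene that rose was Gsk3a, a kinase of the β-catenin destruction complex, at 26.5 ± 1.7 normalized CPM in WT and 31.7 ± 2.0 in Thrb hep-/- livers (log2 fold change 0.26 ± 0.072 (SE), edgeR adjusted p = 0.108). That call was lost without WT replicate 2, 4 or 5 and without Thrb hep-/- replicate 1, 3 or 4, at log2 fold changes from 0.22 to 0.27, and with no filter on low counts (0.25, edgeR adjusted p = 0.277). Ctnnb1, which encodes β-catenin, had 141 ± 4.2 and 126 ± 9.1 CPM with the genotypes apart, yet was not called (log2 fold change −0.17 ± 0.070 (SE), edgeR adjusted p = 0.32). Tcf7l2, the main TCF partner of β-catenin in liver, had a log2 fold change of 0.19 ± 0.19 (SE, edgeR adjusted p = 0.73).

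Of 25 listed Wnt ligands, R-spondins and secretion factors, 10 were tested and none was called, with 7 fold changes above 0 and a median of 0.37. An unadjusted p below 0.05 was found for 5 of the 10, beside 13.6% of all tested genes, and these 5 had both signs. Wnt9b, a ligand of central vein endothelium, ranged from 0.530 to 1.45 normalized CPM in WT and from 1.48 to 2.23 in Thrb hep-/- livers (log2 fold change 0.77 ± 0.27 (SE), edgeR adjusted p = 0.21). Rspo3, the R-spondin of the central vein, ranged from 1.16 to 2.32 and from 2.33 to 2.92 CPM (0.54 ± 0.20, edgeR adjusted p = 0.26). Neither range overlapped between genotypes, but the margins were narrow, at 14 to 65 counts per library for Wnt9b and 31 to 78 for Rspo3. Wnt9b stood below 1 CPM in WT replicates 1 and 3 and passed the filter mainly through the Thrb hep-/- livers, where it was high. Its values are therefore given as a description only. In this list 3 of the 10 tested genes, Wnt9b among them, had the genotypes apart, beside 3.64% of all tested genes. Wls, the carrier that Wnt ligands need for secretion, also had the genotypes apart (0.35 ± 0.11, edgeR adjusted p = 0.18) and is named here, like Wnt5a and Wnt9a, because its values had been seen. Wnt5a and Wnt9a, further Wnt ligands, had fold changes of the opposite sign, −0.78 ± 0.32 and −0.68 ± 0.26 on the log2 scale (edgeR adjusted p = 0.30 and 0.27). Wnt2, another endothelial ligand, had a log2 fold change of 0.46 ± 0.27 (SE, edgeR adjusted p = 0.50). DESeq2 and limma-voom gave Wnt9b adjusted p-values of 0.103 and 0.133, both below 0.15. These tools called 7.23% and 6.94% of all tested genes.

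Markers of the cells around the vessels are given beside the endothelial ligands. The 10 central vein endothelial markers, a list that itself holds Wnt2, Wnt9b and Rspo3, had 9 fold changes above 0 and a median of 0.50. Their only called gene was the fatty acid binding protein gene Fabp4, a share of 10% beside 4.08% of all tested genes. The sums of these markers were 28.2 to 44.5 CPM in WT and 42.0 to 77.9 CPM in Thrb hep-/- livers. Without Fabp4, a sum added after its values had been seen, they were 24.3 to 39.1 and 36.8 to 40.1 CPM. The 10 stellate cell markers had 10 fold changes above 0, a median of 0.31 and sums of 134 to 190 and 183 to 228 CPM. Their 3 called genes were Des, Hhip and Ecm1, a share of 30% beside 4.08% of all tested genes. Hhip ranged only from 0.530 to 1.07 normalized CPM in WT and from 1.06 to 1.84 in Thrb hep-/- livers. It passed the filter of 1 CPM mainly through the Thrb hep-/- livers, where it was high, so its call is given as a description only. Fabp4 ranged from 3.67 to 5.40 normalized CPM in WT and from 5.18 to 40.5 in Thrb hep-/- livers, so the genotypes overlapped. The call of Fabp4 was lost with limma-voom (log2 fold change 1.79, adjusted p = 0.280), with no filter (2.34, edgeR adjusted p = 0.168) and without WT replicate 1, 2 or 5 or Thrb hep-/- replicate 4 (2.08 to 2.39). The call of Hhip was lost without WT replicate 1, 2 or 5 or Thrb hep-/- replicate 2 or 3, and that of Ecm1 without WT replicate 1, 2 or 5 or Thrb hep-/- replicate 1, 2 or 3, at log2 fold changes from 0.80 to 0.91 and from 0.43 to 0.54. The 10 sinusoidal endothelial markers had no called gene and a median of 0.18. The part of these cells in the ligand values was not tested.

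Other targets of the pathway gave no call among 11 tested genes, with a median of 0.030. Nkd1, a feedback inhibitor, had 3.26 ± 0.51 and 4.02 ± 0.50 normalized CPM (log2 fold change 0.30 ± 0.15 (SE), edgeR adjusted p = 0.39). Notum, the secreted enzyme that inactivates Wnt ligands, had 26.6 ± 2.7 and 27.9 ± 3.0 CPM, Sp5 had 2.46 ± 0.54 and 2.31 ± 0.19 CPM, and the tight junction gene Cldn2 had 106 ± 15 and 108 ± 19 CPM. Lect2, Prox1 and the other listed targets were likewise not called. The 10 tested Wnt receptors and the 3 tested secreted inhibitors had no call either.

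Other pericentral and portal genes held calls as well. Of 30 other pericentral genes, all tested, 5 rose and 2 fell, with a median of 0.12. The called share was 23.3%, beside 20% of the portal genes given below and 4.08% of all tested genes, so calls were not particular to the pericentral side. Those that rose were Cyp2c29, Aldh3a2, Gsta3, Gstm1 and Blvrb, enzymes of drug, aldehyde, glutathione and bile pigment metabolism. Cyp2c29 ranged from 541 to 1100 normalized CPM in WT and from 1259 to 1769 in Thrb hep-/- livers (log2 fold change 0.77 ± 0.17 (SE), edgeR adjusted p = 0.054), and Aldh3a2 from 75.5 to 136.6 and from 157 to 265 CPM (0.92 ± 0.17, edgeR adjusted p = 0.020). The genes that fell were Slc13a3, a dicarboxylate transporter, with 45.2 ± 10.6 and 19.5 ± 5.1 CPM, and Mup17, a major urinary protein gene, with 735 ± 556 and 3.59 ± 1.9 CPM, whose near-identical family copies make its count uncertain. Cyp2e1 and Cyp1a2, pericentral cytochromes often used as zonation markers, were not called, with log2 fold changes of 0.12 ± 0.21 and 0.20 ± 0.17 (SE), and neither was the bile acid enzyme gene Cyp7a1 (−0.22 ± 0.42). Leaving out 1 mouse gave between 5 and 8 called genes of this list. The call of Gsta3 was lost without WT replicate 1, 2, 3 or 4 or Thrb hep-/- replicate 2, 3, 4 or 5 (log2 fold changes from 0.39 to 0.53), and that of Gstm1 without WT replicate 1, 2, 4 or 5 or Thrb hep-/- replicate 3, 4 or 5 (0.53 to 0.73).

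On the portal side, 3 of 30 tested genes rose and 3 fell, with a median of −0.037 and a called share of 20% beside 4.08% of all tested genes. Hsd17b6, Ctsc and Etnppl rose, and Cdh1, Aldh1b1 and Apof fell. Leaving out 1 mouse gave between 3 and 7 called genes of this list. The call of Apof was lost without WT replicate 2, 3 or 5 or any Thrb hep-/- replicate but the second (log2 fold changes from −0.36 to −0.30), that of Ctsc without WT replicate 2 (0.36) or Thrb hep-/- replicate 3 (0.33) and that of Aldh1b1 without WT replicate 5 (−0.80) or Thrb hep-/- replicate 3 (−0.85). The portal landmarks had small fold changes and no call: Cyp2f2 at 0.0038 ± 0.13, the urea cycle genes Cps1 at 0.045 ± 0.13 and Ass1 at −0.097 ± 0.17, the glutaminase gene Gls2 at 0.11 ± 0.10 and the histidase gene Hal at 0.018 ± 0.12 (log2, SE). Of 25 tested genes of ammonia and glutamate metabolism, which include 3 members, 1 fell and none rose, a called share of 4% beside 4.08% of all tested genes. The gene that fell was Prodh, proline dehydrogenase, which feeds glutamate synthesis beside Oat, from 246 ± 86 to 116 ± 35 normalized CPM, a call that was lost without Thrb hep-/- replicate 3 (log2 fold change −1.03). Glutamate dehydrogenase (Glud1) and the glutamine transporter gene Slc38a3 were not called, at log2 fold changes of −0.13 ± 0.097 and −0.18 ± 0.14 (SE).

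**Figure D5:**
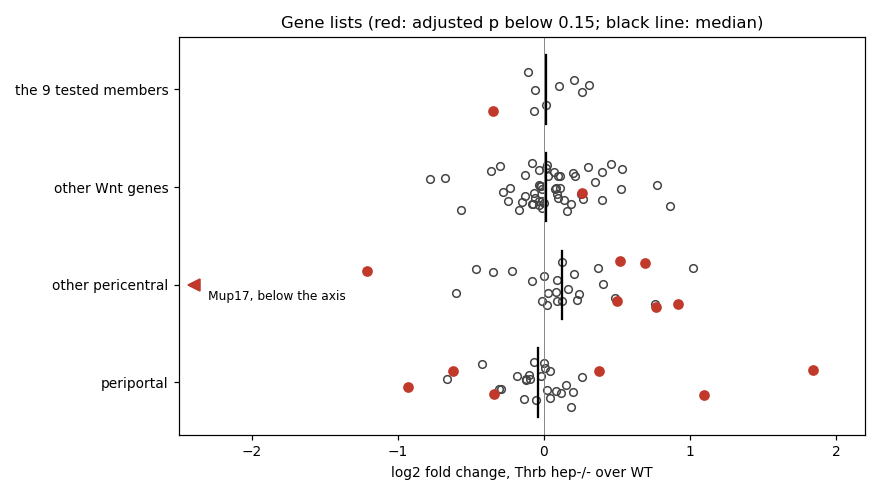
Log2 fold change of Thrb hep-/- over WT (horizontal axis) for the 9 tested members, 55 other Wnt genes, 30 other pericentral genes and 30 periportal genes, 1 point per gene, filled red at an adjusted p below 0.15, with a black line at the median. Called genes stand on both sides of 0 in both zonation lists, while the members and the other Wnt genes hold 1 each, and Mup17, at −7.68, is drawn as a triangle at the edge.

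The sequences upstream of the members were read for the letters bound by TCF/LEF factors and by nuclear receptors, because these are the regulators that the comparison concerns. RefSeq windows of 250 bases before a transcription start (GRCm38.p6) matched 6 members with 7 windows, namely Glul, Axin2, Lgr4, Slc1a2, Oat and Rnf43. All 250 bases of the Glul window also lie in an exon of Teddm2, a gene on the opposite strand. The Rnf43 window that starts at chr11:87662837 lies fully in an exon of Rnf43 itself. The searched TCF/LEF letters were CTTTGNN, where each N is A or T, and the nuclear receptor letters were AGGTCA, on both strands. At least 1 TCF/LEF match was present in 14.8% of 32851 promoter windows and a nuclear receptor match in 14.0%, and the searches do not overlap in their letters. Among the member windows there was 1 of each. Glul held the nuclear receptor letters 57 bases before its start, and Slc1a2 held TCF/LEF letters, on the opposite strand, 207 bases before the start of a transcript that begins inside the gene. The short stretches around them follow 5′ to 3′ with the matched letters in capitals, the first at chr1:153899862-153899887 and the second at chr2:102706221-102706247, both on the plus strand.
Glul: ttcctggcctAGGTCAgccaatcaag
Slc1a2: gaagagggacATCAAAGgccccaaatg

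The windows of Lgr4, the called member, at chr2:109917397-109917646, and of Axin2, the usual readout of the pathway, at chr11:108920099-108920348, both on the plus strand, held neither set of letters and are given in full, all in lower case since no letters matched.
Lgr4: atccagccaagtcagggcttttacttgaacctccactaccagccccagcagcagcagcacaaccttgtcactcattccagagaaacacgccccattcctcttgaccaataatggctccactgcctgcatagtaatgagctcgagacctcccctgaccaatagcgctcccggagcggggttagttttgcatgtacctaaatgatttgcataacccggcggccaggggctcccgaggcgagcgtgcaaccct
Axin2: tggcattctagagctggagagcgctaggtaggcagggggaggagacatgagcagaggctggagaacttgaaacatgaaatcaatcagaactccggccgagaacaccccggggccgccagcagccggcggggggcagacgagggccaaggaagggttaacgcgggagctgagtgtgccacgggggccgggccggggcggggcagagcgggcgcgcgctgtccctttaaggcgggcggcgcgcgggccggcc

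The Axin2 window had a GC content of 69.2% and the Lgr4 window 55.6%, beside a median of 52.4% over all windows. A match or its absence in these windows describes the letters only. No binding of TCF/LEF factors or of thyroid hormone receptor was measured in these libraries.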

How the data were processed

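Liver RNA of 10 mice was sequenced as stranded mRNA libraries (DNBSEQ). Per the labels and the study's methods, the authors mapped reads to mm10 (GRCm38) with HISAT2 2.2.1 and counted them per gene of Ensembl release 102 with HTSeq 0.9.1 in union mode, without strand, at a minimum alignment quality of 10. The files deposited by the authors hold raw counts per gene, with reads of several places or several genes left out, so genes that resemble or overlap others are counted too low. A deposited table of the authors' comparison (edgeR 3.36.0) holds log2 fold changes, mean log2 CPM, F, p and adjusted p-values and was not used.

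Here, a gene needed 1 CPM or more in 5 or more libraries. Counts were scaled by TMM and tested with edgeR 4.0.16 (R 4.3.3, robust quasi-likelihood test, Benjamini-Hochberg adjustment over all tested genes, called below 0.15 as in the study's methods). A standard error is the absolute log2 fold change over the square root of F, and intervals are 95%. The fit was tested on simulated data. The alternatives tried were RLE or upper-quartile scaling, DESeq2 1.42.0, no filter, at least 10 counts in every library, limma-voom (limma 3.58.1) with quality weights, a replicate block, an adjusted p of 0.05 and leaving out each mouse. Exon lengths and coordinates come from GENCODE M21 on GRCm38, where 260 identifiers had no symbol, and promoter windows from RefSeq. P-values of the fits set the difference between genotypes against the spread between these mice, and 3 counts were taken as the floor.

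The named genes are Thrb, the members, called genes of the lists, fixed landmarks of zonation and the Wnt pathway, and the genes most correlated with Glul and with Axin2. Called acute-phase genes are given by count, whose range without single mice was added after the data were seen. Members and lists were chosen with earlier results of these data known.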

Additional observations from a re-analysis of the deposited data

Results flagged for a closer look

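In 22 groups of 5 livers, 1 per gene and genotype for the 10 members and Thrb, the gap between the highest or lowest liver and its neighbour was compared with the range of the group. A gap above 0.71 of the range, which chance gives in about 1.1 of 22 groups, was found in 2.

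Thrb hep-/- replicate 1 had 10.2 normalized CPM of Lgr5, the R-spondin receptor of pericentral hepatocytes, while the other 4 Thrb hep-/- livers had between 3.19 and 4.95, a gap of 0.75 of the range. Without this liver the log2 fold change of Lgr5 was −0.47.

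Thrb hep-/- replicate 2 had 0.862 normalized CPM of the ammonia channel gene Rhbg, from 23 counts, while the other 4 had between 0.265 and 0.354, a gap of 0.85 of the range. The cause of neither value was tested.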

How the results depend on the processing

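The number of genes called between genotypes was 499, and 885 with DESeq2, 849 with limma-voom and 165 at an adjusted p of 0.05. It ran from 222 (without Thrb hep-/- replicate 3) to 665 when 1 mouse was left out, with 227 without WT replicate 2 and 239 without WT replicate 5. The number of called members was 1, and 0 with RLE scaling, with the replicate block and at an adjusted p of 0.05, and it ran from 0 to 1 when 1 mouse was left out. The log2 fold change of Lgr4 was −0.34 with RLE scaling (adjusted p = 0.153) and −0.34 with the replicate block (adjusted p = 0.25), and from −0.41 to −0.26 without 1 mouse. Same-numbered mice did not deviate together, with correlations from −0.20 to 0.0091, so the replicate numbers give no pairing, and the block called 348 genes. Of the other named genes, calls were lost with the block for Gsk3a (adjusted p = 0.175), Gsta3 (0.273), Apof (0.174), Fabp4 (0.273), Des (0.160) and Ecm1 (0.199). With no filter they were lost for Gsk3a (0.277), Gstm1 (0.219), Aldh1b1 (0.183), Fabp4 (0.168) and S100a8 (0.291), and among the acute-phase genes for Orm1, Serpina3n and Mt1.

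Fold changes near 0 changed sign, and none of these genes was called in any alternative except Lect2, which was called without Thrb hep-/- replicate 2 (−0.31, adjusted p = 0.115). Limma-voom gave −0.040 for Glul and −0.0027 for Cldn2, and Cyp2f2 was −0.0017 with upper-quartile scaling and −0.0020 with no filter. Without 1 mouse the ranges were −0.045 to 0.092 for Glul, −0.19 to 0.057 for Axin2, −0.47 to 0.10 for Lgr5, −0.17 to 0.25 for Tbx3, −0.032 to 0.22 for Cyp2e1, −0.68 to 0.020 for Cyp7a1, −0.068 to 0.065 for Cyp2f2, −0.0022 to 0.12 for Cps1, −0.23 to 0.033 for Ass1, −0.055 to 0.11 for Hal, −0.19 to 0.024 for Sp5, −0.081 to 0.093 for Cldn2 and −0.31 to 0.0025 for Lect2. Znrf3, Slc1a2, Oat and Rnf43 kept their sign in all 17 alternatives, and none of them was called. Causes were not tested. With a median standard error of 0.12 on the log2 scale, small changes of the members could not be seen in 5 mice per genotype. Axin2 and Lgr5 varied more between livers than the median gene, with standard errors of 0.20 and 0.31. Rhbg rests on 8 to 32 counts per library.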
